A study of Mus musculus with 8 samples.

Results

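The 5 Tmem132 genes of the mouse, Tmem132a, Tmem132b, Tmem132c, Tmem132d and Tmem132e, were examined for methylation of lysine 9 of histone H3 (H3K9) in mouse embryonic fibroblasts (MEFs). The members were chosen by their gene name, 5 of 55413 annotated genes. The family drew attention because Tmem132d lies in one of the widest H3K9me3 regions. That width and the H3K9me3 coverage of Tmem132d that follows from it are given here only as a description. Each H3K9me3 count of members below includes Tmem132d, so it is not independent of that choice. The data were chromatin immunoprecipitation followed by sequencing (ChIP-seq) for H3K9me1, H3K9me2 and H3K9me3 and input DNA, with 2 replicates of each and 8 samples in all. Every sample came from WT MEFs, named E1c in the study, a line from 1 clone with conditional, undeleted alleles of the H3K9 methyltransferase gene Eset1 and a tamoxifen-inducible Cre. No mutant or treated samples were analysed here. The authors deposited 1 list of enriched regions per mark, without scores and without values per replicate, so each number below describes 1 map of a mark, with no replicate error, and the reads behind a region cannot be counted from these lists. No region list of the input was used here. Scored on GRCm38 (mm10) were start windows of 1 kb either side of each annotated transcription start site (TSS), whole gene bodies, and flanks of 200 kb on each side of the gene.

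The Tmem132 genes encode membrane proteins with a single transmembrane pass and a large extracellular part made largely of immunoglobulin-like and related folds. They are known mainly from the nervous system, where they have been tied to cell adhesion and to the actin cytoskeleton. Trimethylation of H3K9 is the mark of repressed heterochromatin that HP1 proteins bind, dimethylation is placed largely by G9a and Glp at silent genes, and monomethylation is both an intermediate and a mark found along active chromatin. Region lists do not measure expression, and none was measured here.

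The family split into 3 patterns. Tmem132c, Tmem132d and Tmem132e were covered by H3K9me3 with little or no H3K9me1 and H3K9me2. Tmem132b was covered by H3K9me3 and H3K9me2, with H3K9me1 over part of it, while Tmem132a was covered by H3K9me1 alone. Both H3K9me2 and H3K9me3 at 50% or more of the body, as in Tmem132b, were found for 5.01% of protein-coding genes. The limits that describe the 3 patterns were set after the values were seen. For H3K9me3, 4 of the 5 members had at least 50% of the gene body covered, against 9.59% of all 55413 genes and 7.02% of 21938 protein-coding genes. The median member was covered to 95.3%, and the median over all genes was 0.0%. For H3K9me1 and H3K9me2, 1 member each passed the same limit (Tmem132a and Tmem132b), beside 17.3% and 9.10% of all genes. Since Tmem132b, Tmem132c and Tmem132d lie within 2901 kb of chromosome 5, they are not independent observations, and counts over 5 genes are descriptions with no test.

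**Figure D1:**
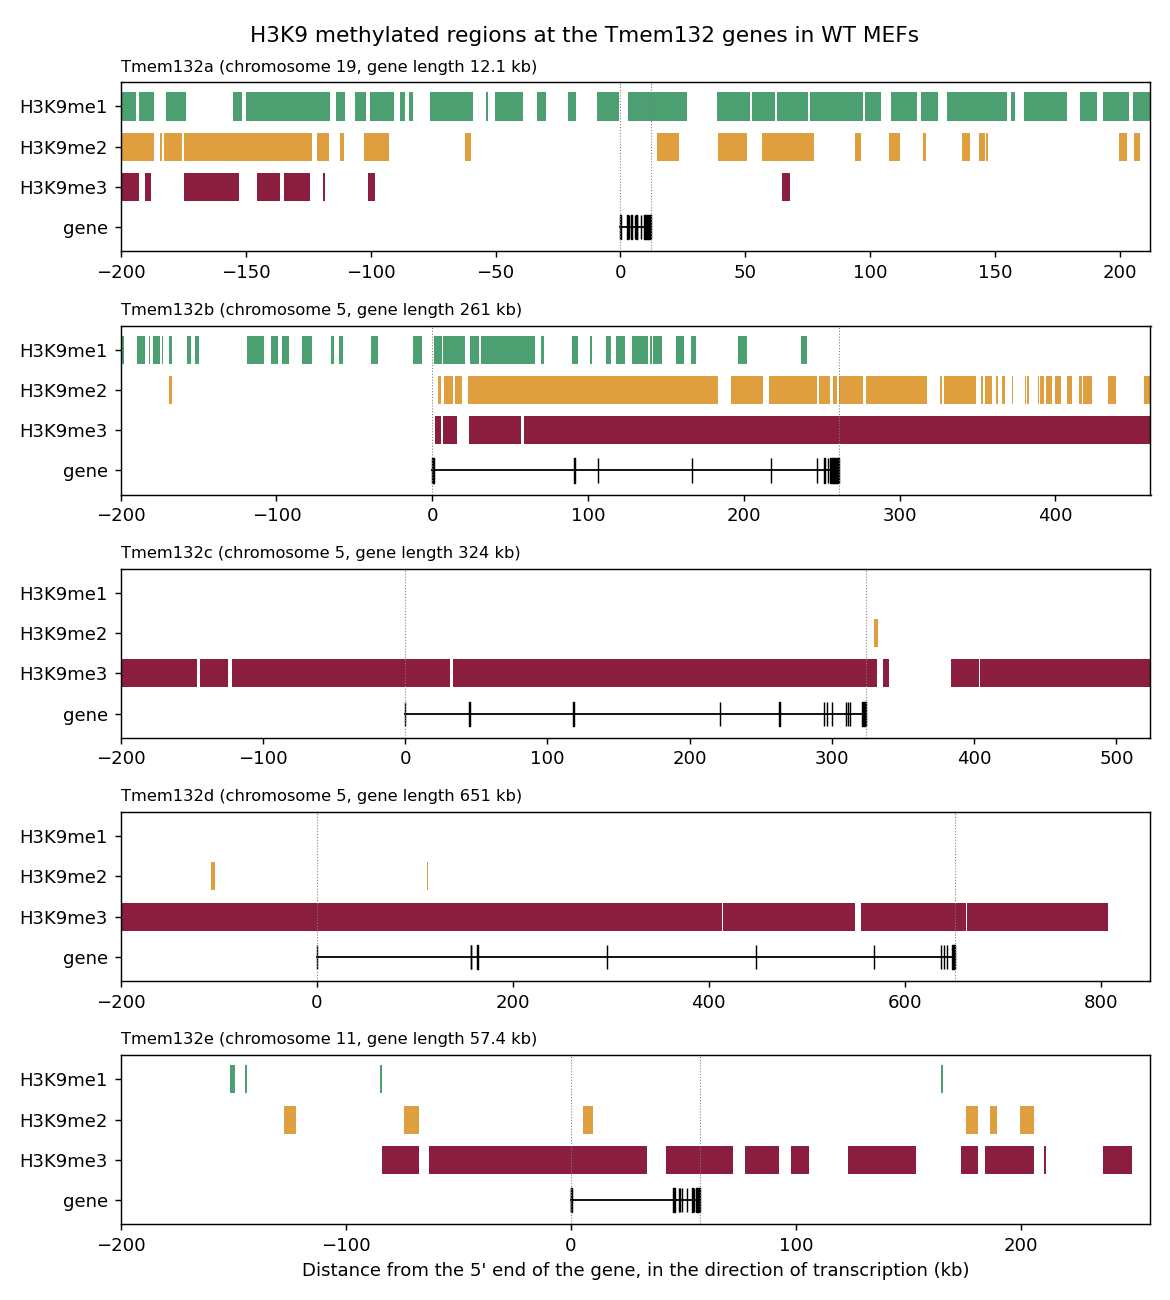
Positions of H3K9me1, H3K9me2 and H3K9me3 regions (coloured blocks) and exons (black) at each Tmem132 gene and its 200 kb flanks, against distance from the 5' end of the gene in kb, with dotted lines at the gene ends. H3K9me3 fills Tmem132b, Tmem132c, Tmem132d and most of Tmem132e, and is absent from Tmem132a, which carries H3K9me1.

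Start sequences are shown for Tmem132c and Tmem132e, whose starts meet a H3K9me3 region, as that of Tmem132d also does, and for Tmem132b, whose coding starts lie outside one. They are the RefSeq promoter sequences (GRCm38.p6), from 250 bases before to 50 bases after the start, on the strand of the gene, and a match was found for 3 of the 5 members. Capitals mark CpG dinucleotides, the site of DNA methylation in mammals.
Tmem132b (chr5:125532168-125532467, plus strand): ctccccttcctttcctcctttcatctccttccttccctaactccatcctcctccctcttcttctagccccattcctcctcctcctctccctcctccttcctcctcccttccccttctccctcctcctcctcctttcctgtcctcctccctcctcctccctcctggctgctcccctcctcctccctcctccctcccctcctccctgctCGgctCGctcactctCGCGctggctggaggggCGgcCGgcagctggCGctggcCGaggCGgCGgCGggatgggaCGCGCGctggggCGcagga
Tmem132c (chr5:127241576-127241875, plus strand): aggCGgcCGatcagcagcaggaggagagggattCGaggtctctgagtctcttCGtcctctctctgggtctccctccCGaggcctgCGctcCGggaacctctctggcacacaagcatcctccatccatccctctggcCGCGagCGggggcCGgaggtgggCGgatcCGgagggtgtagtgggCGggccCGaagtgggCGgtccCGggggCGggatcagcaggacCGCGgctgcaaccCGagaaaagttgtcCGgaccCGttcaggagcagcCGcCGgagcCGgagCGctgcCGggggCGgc
Tmem132e (chr11:82388650-82388949, plus strand): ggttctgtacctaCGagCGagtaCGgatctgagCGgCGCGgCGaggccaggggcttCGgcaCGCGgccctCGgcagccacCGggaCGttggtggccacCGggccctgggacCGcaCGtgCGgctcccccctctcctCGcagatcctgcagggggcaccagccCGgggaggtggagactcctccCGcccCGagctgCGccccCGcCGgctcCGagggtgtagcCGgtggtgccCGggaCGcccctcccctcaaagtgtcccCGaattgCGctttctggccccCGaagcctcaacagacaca

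All 3 sequences held more CpG than the median promoter. The Tmem132b sequence held 15 CpG, the Tmem132c sequence 29 and the Tmem132e sequence 31, beside a median of 7 over 32851 promoters of the same length. At least as many CpG were found in 34.6%, 12.9% and 10.6% of all promoters, respectively. GC content was 67.7% for Tmem132b, 70.3% for Tmem132c and 72.3% for Tmem132e, with a median of 52.7% over all promoters. The letters GGGCGG, searched on both strands and holding a CpG themselves, matched 1 time in Tmem132b, 5 times in Tmem132c and 1 time in Tmem132e, and 35.7% of all promoters held them. TATAAA and CCAAT had 0 matches in the 3 sequences on either strand, and 13.6% and 37.4% of all promoters held them. The sequences of Tmem132c and Tmem132e were covered by H3K9me3 over 100%, while that of Tmem132b met no region of any mark.

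At start windows, 4 members met H3K9me3 (12.0% of all genes), 2 met H3K9me1 (21.4%) and 1 met H3K9me2 (11.5%). Tmem132c had 5 annotated starts, Tmem132d had 3 and Tmem132e had 3, and each of these windows was covered by H3K9me3 over 100% and by H3K9me1 and H3K9me2 over 0.0%. Thus in these 3 genes H3K9me3 ran across the start of the full-length transcript as well as across internal starts. For Tmem132b the only start met by H3K9me3 or H3K9me2 was an internal one, that of a retained-intron transcript at position 125622488, where the window was covered by all 3 marks over 100%. Its 2 coding starts, at 125531774 and 125532387, met H3K9me1 over 1.2% and 31.8% of the window and no other mark, and the nearest H3K9me3 region lay 1727 bp from the 5' end. With the 5' end of the gene as the only start, the H3K9me3 count was 3 and the H3K9me2 count was 0. Tmem132a met H3K9me1 at each of its 4 starts, and at its 5' end the window was covered over 22.0%, by a region whose edge lay 561 bp away on the side of the neighbouring gene Tmem109. The start of Tmem132a itself was thus free of a region, while its internal start at 10860508 was covered by H3K9me1 over 100%.

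Tmem132d, which is known from maturing oligodendrocytes and has been linked to anxiety-related traits, was the longest gene of the family. It spans chromosome 5 from 127781630 to 128433077 on the minus strand (651 kb, ENSMUSG00000034310), and 0.620% of protein-coding genes are at least as long. Only 0.995% of its length was exonic, and its longest intron measured 156 kb. H3K9me3 covered 99.0% of the body, 100% of the exons and 100% of the longest intron. H3K9me1 covered 0.0%, and H3K9me2 covered 0.2% through a 1.5 kb region from 128319001 to 128320500. The H3K9me3 region over the start ran from 128019751 to 128722500. It measured 702.75 kb, the 3rd widest of 27108, and 58.8% of it lay in the gene. It extended 289.4 kb upstream of the 5' end and 413.3 kb into the gene. Regions from 127883251 to 128018250 (135.00 kb) and from 127770001 to 127878000 (108.00 kb) filled the rest. The parts of Tmem132d outside H3K9me3 were an intronic interval of 1.5 kb from 128018251 to 128019750 and an intronic interval of 5.25 kb from 127878001 to 127883250. The latter overlaps the annotated pseudogenes Gm17131 and Gm17132, and neither interval carried H3K9me1 or H3K9me2. With regions up to 5 kb apart joined, the region at the start reached from 127883251 to 128970000 (1086.75 kb, 7th of 17096 joined regions).

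The H3K9me3 region of 702.75 kb at Tmem132d met 12 annotated genes, of which 3 were protein-coding. Besides Tmem132d these were Fzd10, a Frizzled receptor for Wnt ligands, and Piwil1, a PIWI protein of the male germline. The Fzd10 body (128600844 to 128604093) lay wholly inside the region and was therefore covered by H3K9me3 over 100%. The region of 702.75 kb ended inside Piwil1 (128702524 to 128755474). All H3K9me3 regions together covered 97.2% of Piwil1, and H3K9me2 covered 7.1% of it. The other 9 genes were long non-coding, antisense or unclassified transcripts. Each lay wholly inside the region, so its coverage by H3K9me3 of 100% follows from how it was listed.

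Tmem132c spans chromosome 5 from 127241808 to 127565793 on the plus strand (324 kb, ENSMUSG00000034324), with a longest intron of 102 kb. H3K9me3 covered 99.3% of its body and 100% of its exons, and H3K9me1 and H3K9me2 covered 0.0%. A region of 153.75 kb from 127119751 to 127273500 held the start and reached 122.1 kb upstream. A second region from 127275751 to 127573500 (297.75 kb, 27th widest of the list) held the rest of the gene and ended past its 3' end. The 2.25 kb between them, from 127273501 to 127275750, was intronic, had no mark and lay inside the antisense transcript Tmem132cos. The nearest H3K9me1 region lay 1469808 bp from the 5' end of Tmem132c, and the nearest H3K9me2 region 279558 bp. Past the 3' end of Tmem132c, H3K9me2 covered 12.0% of the first 25 kb. Tmem132c and Tmem132d had nearly the same values. Over 9 coverage values (3 marks in the 5' start window, the body and the flanks) they lay 2.0 percentage points apart, while the distance of Tmem132e from them was 42.8 and 44.3. The downstream flanks of Tmem132c and Tmem132d are largely the same bases, so their flank values are not independent.

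Tmem132b spans chromosome 5 from 125531774 to 125792583 on the plus strand (261 kb, ENSMUSG00000070498). H3K9me3 covered 95.3% of its body, H3K9me2 89.1% and H3K9me1 42.6%. Regions of all 3 marks overlapped over 37.7% of the body, and those of H3K9me2 and H3K9me3 without H3K9me1 over 49.5%. Overlap of separate maps cannot show whether the marks lie on the same chromatin in the same cells. H3K9me3 without the other 2 marks made up 6.5%, and 1.2% had no mark. The H3K9me3 region over most of the gene ran from 125590501 to 126165750. It measured 575.25 kb, the 6th widest of the list, and 35.1% of it lay in the gene. The H3K9me2 region from 125554501 to 125715000 measured 160.50 kb, 24th of 29119, and lay wholly inside Tmem132b. It was covered by H3K9me3 over 98.6% and by H3K9me1 over 50.9%. H3K9me1 was broken into 16 regions with a median width of 5.25 kb, the widest of 35.25 kb, against 8 H3K9me2 and 4 H3K9me3 regions.

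The marks were spread unevenly along Tmem132b. With the gene cut into 10 equal parts from the 5' end, H3K9me1 covered 81.9% and 97.1% of the parts nearest the start and 0.0% and 14.4% of those nearest the 3' end. H3K9me3 covered 58.9% of the part at the start and at least 94.2% of each later part. H3K9me2 covered 56.0% at the start, 100% of each of the next 6 parts and 68.4% to 85.6% of the last 3. The exons of Tmem132b were covered by H3K9me1 over 13.4% and by H3K9me2 over 52.1%, both less than the introns (43.5% and 90.4%), while H3K9me3 covered 93.6% of exons and 95.4% of introns. The last exon, from 255.158 to 260.809 kb past the 5' end, makes up most of the 8.24 kb of exon. The exon shares thus mainly describe the 3' end of the gene, and avoidance of exons was not tested. Of the 4 runs of Tmem132b outside H3K9me3, the widest was an intronic 7.50 kb from 125547751 to 125555250, of which H3K9me1 covered 5.25 kb, and another was the 1.73 kb at the 5' end.

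Tmem132e, mutated in a form of inherited deafness in people, spans chromosome 11 from 82388900 to 82446332 on the plus strand (57.4 kb, ENSMUSG00000020701). H3K9me3 covered 85.6% of its body and 100% of its exons, H3K9me2 7.8% and H3K9me1 0.0%. A H3K9me3 region of 96.75 kb from 82326001 to 82422750 held its start, reaching 62.9 kb upstream. A region of 30 kb from 82431001 to 82461000 held its 3' end. The 8.25 kb between them, from 82422751 to 82431000, lay in the longest intron and had no mark. The H3K9me2 part was a region of 4.50 kb from 82394251 to 82398750 in the same intron, where H3K9me3 was present over its whole length.

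Tmem132a binds the endoplasmic reticulum chaperone Hspa5 (GRP78) and has been tied to Wnt signalling through Wls. It was the short member, on chromosome 19 from 10857822 to 10869940 on the minus strand (12.1 kb, ENSMUSG00000024736), with 37.5% of its length exonic. H3K9me1 covered 73.7% of the body, 86.4% of exons and 66.0% of introns, through a region from 10843501 to 10866750 (23.25 kb). That region began 3.2 kb downstream of the 5' end and ran past the 3' end into Slc15a3, a peptide and histidine transporter gene, which overlaps the 3' end of Tmem132a. H3K9me2 and H3K9me3 covered 0.0% of the body. The nearest H3K9me2 region was 14440 bp and the nearest H3K9me3 region 64690 bp from the 5' end. Past the 3' end of Tmem132a, H3K9me2 covered 36.0% of the first 25 kb. The pattern of Tmem132a is frequent, since H3K9me1 over at least 50% of the body with no H3K9me2 or H3K9me3 in it was found for 11.6% of protein-coding genes and for 28.1% of those on chromosome 19.

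**Figure D2:**
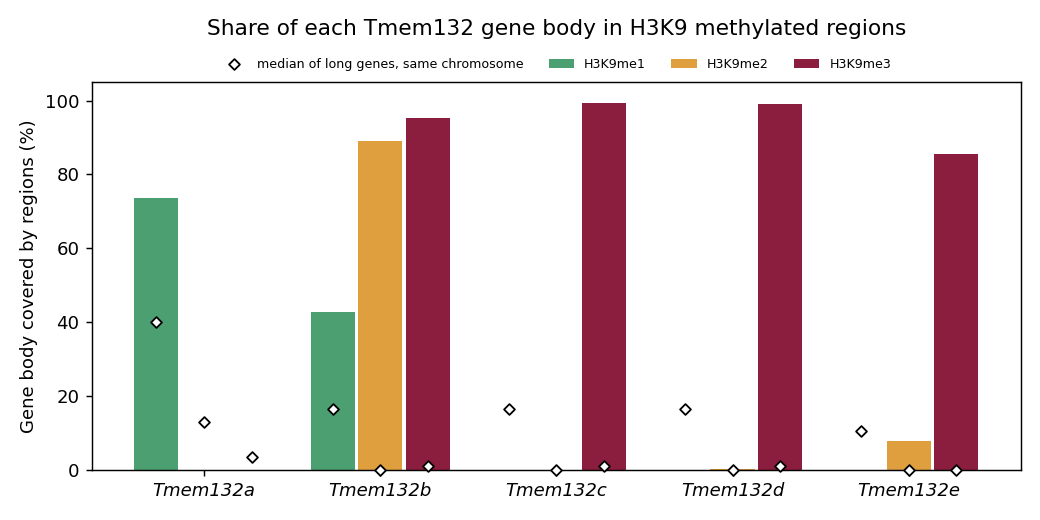
Percent of each Tmem132 gene body covered by H3K9me1, H3K9me2 and H3K9me3 regions (bars, 1 map per mark and no error bars), with diamonds at the median of protein-coding genes of at least 100 kb on the same chromosome. Tmem132a (12.1 kb) and Tmem132e (57.4 kb) are themselves shorter than that limit. H3K9me3 stands at 95.3%, 99.3%, 99.0% and 85.6% in Tmem132b to Tmem132e and at 0.0% in Tmem132a.

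Coverage differs between chromosomes, so the members were set beside genes of their own chromosome. H3K9me3 covered 16.1% of chromosome 5, 8.63% of chromosome 11 and 22.0% of chromosome 19. H3K9me1 covered 18.7%, 16.4% and 29.4% of them, and H3K9me2 10.1%, 6.07% and 21.1%. On chromosome 5, 13.9% of the 151 protein-coding genes of at least 100 kb had 50% or more of the body in H3K9me3. Their median was 0.9%, and 10 of them reached 95%, with Tmem132b, Tmem132c and Tmem132d among these 10. H3K9me2 coverage of at least that of Tmem132b was found in 2 of the 151, Tmem132b included. On chromosome 11, 22 of 1639 protein-coding genes had H3K9me3 over as much of the body as Tmem132e, itself included. On chromosome 19, 181 of 719 protein-coding genes had H3K9me1 over as much of the body as Tmem132a. H3K9me3 over at least 50% of the body with H3K9me1 and H3K9me2 each under 10% described Tmem132c, Tmem132d and Tmem132e and 1.06% of all protein-coding genes. Genes of at least 100 kb passed the 50% limit for H3K9me3 more often than all protein-coding genes of their chromosome. The shares were 13.9% against 7.70% on chromosome 5, 8.20% against 2.75% on chromosome 11 and 15.2% against 8.76% on chromosome 19. Many long genes nevertheless held none. On chromosome 5, 70 of the 151 long genes had no H3K9me3 in the body, and on chromosome 11, 76 of 122.

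**Figure D3:**
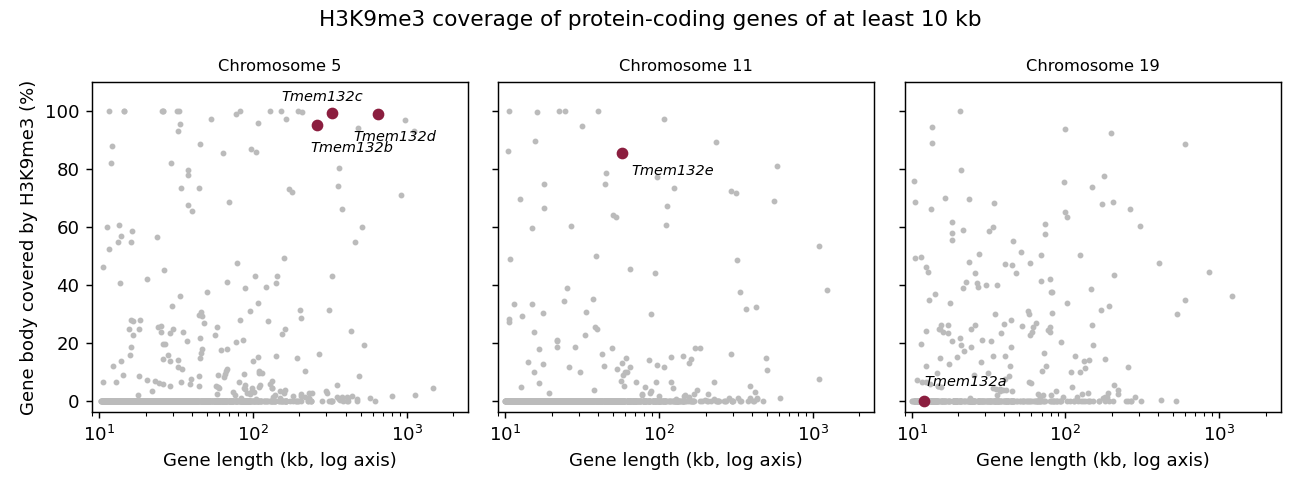
Percent of the gene body covered by H3K9me3 against gene length (kb, log axis) for protein-coding genes of at least 10 kb on chromosomes 5, 11 and 19, with the Tmem132 genes in red and other genes in grey. Tmem132b, Tmem132c and Tmem132d sit near the top among long genes of chromosome 5, and Tmem132a sits at 0.0%.

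The flanks differed between members. At least 50% of the 2 flanks together was covered by H3K9me3 for 3 members (7.26% of all genes), by H3K9me1 for 1 member (15.9%) and by H3K9me2 for 0 (6.72%). For Tmem132d, H3K9me3 covered 100% of the 200 kb upstream and 77.5% of the 200 kb downstream. For Tmem132c it covered 98.1% upstream and 75.6% downstream. The 3' ends of these 2 genes lie 216 kb apart, so their downstream flanks are largely the same bases. For Tmem132e the values were 39.7% and 55.3%, or 47.5% of both flanks, just under the limit. The flanks of Tmem132b were opposite to each other. H3K9me3 covered 0.0% upstream and 100% downstream, which together put it at the limit of 50%. H3K9me2 covered 1.1% upstream and 58.9% downstream, and H3K9me1 covered 31.1% upstream and 0.0% downstream. H3K9me1 was thus present on both sides of the 5' end, covering 31.1% of the 200 kb before it and 89.0% of the 50 kb after it, while H3K9me3 was found only after it within these flanks. In steps of 25 kb away from the 3' end of Tmem132b, H3K9me2 covered 89.3%, 100%, 61.0%, 76.7%, 24.0%, 54.0%, 38.3% and 27.7%, while H3K9me3 covered 100% of each step. For Tmem132a, H3K9me1 covered 62.2% upstream and 80.9% downstream, H3K9me2 45.3% and 30.4%, and H3K9me3 27.3% and 1.5%. Its upstream H3K9me3 was absent from the nearest 3 steps of 25 kb and reached 75.2% and 87.0% in the 6th and 7th.

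The stretch of chromosome 5 from the start of Tmem132b to the start of Tmem132d, at positions 125531774 and 128433077, was covered by H3K9me3 over 94.6%, by H3K9me2 over 13.9% and by H3K9me1 over 3.8%. It held the 5' ends of 5 protein-coding genes. The 1449 kb between Tmem132b and Tmem132c held no 5' end of a protein-coding gene and was covered by H3K9me3 over 94.1% and by H3K9me2 over 11.5%. The 216 kb between Tmem132c and Tmem132d held 2 such genes and were covered by H3K9me3 over 77.1%. These were Slc15a4, an endolysosomal peptide and histidine transporter gene, and Glt1d1, a glycosyltransferase-like gene. H3K9me3 covered 20.5% of the Slc15a4 body and 99.0% of the Glt1d1 body. With regions up to 5 kb apart joined, H3K9me3 ended at 127581750, past Tmem132c, and began again at 127625251, inside Slc15a4 near its 5' end.

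**Figure D4:**
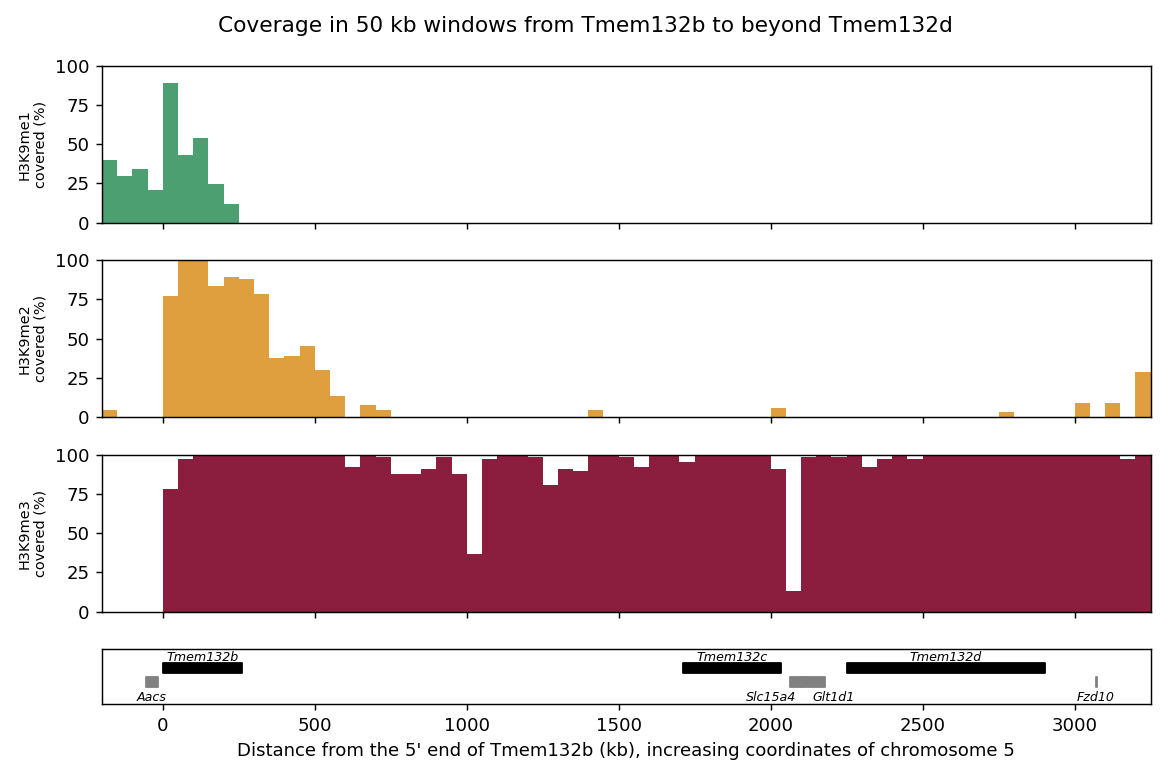
Percent covered by each mark in 50 kb windows of chromosome 5, against distance from the 5' end of Tmem132b (kb), with the family members in black and 4 neighbouring genes in grey. H3K9me3 begins at Tmem132b and continues through Tmem132c and Tmem132d with gaps, among them one at Slc15a4, H3K9me2 is sparse between Tmem132c and Tmem132d, and H3K9me1 is absent from the 3' end of Tmem132b to the start of Tmem132d.

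Protein-coding neighbours within 200 kb were examined next. Upstream of Tmem132b there were 6, among them Aacs, Bri3bp, Dhx37 and Scarb1, and no H3K9me2 or H3K9me3 region met a start or the body of any of them. H3K9me1 met a start of 2 of the 6, Dhx37, an RNA helicase gene, and Scarb1, the HDL receptor gene, and covered 72.3% and 65.5% of their bodies. On chromosome 5, 50.2%, 13.8% and 11.9% of protein-coding genes met H3K9me1, H3K9me2 and H3K9me3 at a start. Around Tmem132a there were 15, among them the T cell surface receptor genes Cd5 and Cd6, the splicing factor gene Prpf19 and the membrane protein genes Tmem109 and Ms4a10. H3K9me1 met a start of 13 of these 15, H3K9me2 of 8 and H3K9me3 of 1 (Ms4a8a), beside 55.4%, 21.4% and 18.1% of protein-coding genes on chromosome 19. H3K9me1 covered at least 50% of the body in 14, H3K9me2 in 4 and H3K9me3 in 2 (Ms4a18 and Ms4a8a). The same body shares over protein-coding genes on chromosome 19 were 45.3%, 12.5% and 8.76%. The neighbours of Tmem132c and Tmem132d were Slc15a4, Glt1d1 and, for Tmem132d, Fzd10. Each met H3K9me3 at a start, beside 11.9% of protein-coding genes on chromosome 5. Fzd10 lies inside the 702.75 kb region that drew attention to the family, so its value follows from that choice. Slc15a4 and Glt1d1 overlap at their 5' ends, so their start values are not independent of each other. The neighbour of Tmem132e was the chemokine gene Ccl1, whose start windows met H3K9me3 over 84.5% at most and whose annotated body was covered by it over 0.5%. Its start windows also met H3K9me1, over 15.5% at most. On chromosome 11, 6.22% of protein-coding genes met H3K9me3 at a start and 37.3% met H3K9me1.

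Genes with the most similar pattern were sought over the same 9 coverage values, as the Euclidean distance in percentage points among protein-coding genes outside the family. Nearest to Tmem132c were Glt1d1 (0.5), Arhgef16 (2.0) and B230104I21Rik (2.6), and nearest to Tmem132d were the same 3 genes (2.3, 3.9 and 1.6). Glt1d1 lies 66.5 kb from Tmem132c and 72.3 kb from Tmem132d, so its flanks take in parts of both genes. Arhgef16 and B230104I21Rik lie close together on chromosome 4, at 154278486 to 154301676 and 154336127 to 154349918, and share flank bases. Tmem132e was nearest to Gm17093 (11.6), Auts2 (12.2) and Gm8257 (12.8), of which Auts2, a long neurodevelopmental gene, had 93.2% of its body in H3K9me3. Tmem132b had no close match, with Nr3c2 (24.6), the mineralocorticoid receptor gene, Lgr5 (32.9) and Samd5 (39.2) as the nearest. Nr3c2 had 48.5% of its body in H3K9me1, 86.8% in H3K9me2 and 87.9% in H3K9me3, and 0.0% of each in the window at its 5' end. Tmem132a was nearest to Gm49527 (16.1), Zfp7 (16.5) and Znrf1 (17.2). Gm49527 and Zfp7 overlap on chromosome 15, and Gm17093 and Gm8257 lie close together on chromosome 14. The genes of each such pair are therefore not independent matches.

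Partners of the family were counted as a further list of 11 genes, with the Tmem132a partners Hspa5 and Wls and the subunits of the actin-regulating WAVE complex to which Tmem132d has been tied (Nckap1, Cyfip1, Cyfip2, Wasf1, Wasf2, Wasf3, Abi1, Abi2 and Brk1). None of the 11 met any mark at a start window, beside 28.3%, 10.8% and 10.2% of protein-coding genes for H3K9me1, H3K9me2 and H3K9me3. The median share of the body in H3K9me3 was 0.0%, as it was over all genes. Of the values named after they were seen, Wasf1 had 88.2% of its body in H3K9me1, and no other partner reached 50% with any mark. Cyfip2 had 15.1% of its body in H3K9me3, Wasf1 23.1% and Wasf3 38.9%. Of 12 fibroblast marker genes, 0 met H3K9me3 at a start, 1 met H3K9me2 (Dcn) and 3 met H3K9me1. Of 12 neuron and oligodendrocyte markers, 1 met H3K9me3 and H3K9me2 at a start (Syt1) and 6 met H3K9me1. These counts stand beside the same shares of protein-coding genes, and with 12 genes a list nothing is read from them. The lists cannot show cell identity, since they hold no expression.

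Members also differed in base composition and length. GC content of the gene body was 45.0% in Tmem132d, 46.4% in Tmem132c, 47.3% in Tmem132b, 51.4% in Tmem132e and 54.6% in Tmem132a, beside a median of 45.2% over protein-coding genes. The soft-masked (repeat) share was 26.3%, 28.0%, 27.9%, 18.1% and 10.4% in the same order, beside a median of 22.5%. Tmem132a thus had the lowest repeat share and the highest GC content of the family, while the lengths ran from 12.1 kb to 651 kb beside a median of 17.4 kb. With 5 genes, of which 3 are neighbours, no relation of these properties to H3K9me3 was tested.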

How the data were processed

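Reads of the 8 samples (input, H3K9me1, H3K9me2 and H3K9me3, 2 replicates of each) were aligned by the authors to mm10 (GRCm38) with BWA 0.7.1, the version in the submitters' processing notes, and regions were called with histoneHMM, per the study's methods. The use of replicates and input in the calling step is not given in the sources used here. The deposited lists hold chromosome, start and end of each region and no score. Positions lie on a grid of 750 bp with starts read as 1-based, so edges are known to 750 bp.

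Genes came from GENCODE M21 (55413 genes on 21 chromosomes, 21938 protein-coding) and base composition, soft-masking and promoters from RefSeq GRCm38.p6. Bases covered by regions were counted in start windows, bodies and flanks of each gene. A start window counts as met from 1 bp, and a body or flank as mostly covered from 50%. No test was made, since there is 1 list per mark. The counting code was checked on simulated data, with 0 mismatches in 4000 intervals.

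The members, gene lists and limits were chosen with earlier results of these data known. Named are the members, protein-coding genes within 200 kb, genes met by the widest region at Tmem132d, the 3 genes of most similar coverage per member, and the partner and marker lists. Other genes were named after their values were seen. Region width, joining, start windows, start sites, coverage limits, exons, flank size, start base and background were varied. Scripts ran in Python 3.11.15 with SciPy 1.17.1 (intervals), NumPy 2.4.6 and, for plots, Matplotlib 3.10.9.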

Additional observations from a re-analysis of the deposited data

How the results depend on the processing

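No paired analysis was possible because each mark has 1 region list without replicate values, and for the same reason no replicate could be left out. Of 72 recounts of members under the alternatives, 66 stayed within 1.5 times the value given and 6 did not. The H3K9me2 start count of 1 became 0 with the 5' end only and 0 with protein-coding transcripts only, since Tmem132b meets H3K9me2 only at an internal start. The count of members with most of the body in H3K9me1 was 1, and became 2 with regions up to 5 kb apart joined, 2 with a limit of 25% and 0 with a limit of 75%, and the count of members with most of the flanks in H3K9me2 went from 0 to 2 with a limit of 25%. The H3K9me3 start count was 3 or 4 under each alternative. The count of members with most of the flanks in H3K9me3 was 3. It became 4 with regions up to 5 kb apart joined and 4 with a limit of 25%. With flanks of 100 kb it was 4, and with flanks of 500 kb it was 2. These changes of the flank count lie within the 1.5 times used above. Among coverage values of members, 10 of 30 moved beyond a 95% Wilson interval over 750 bp bins with regions of at least 5 kb, 8 of 30 with joining, 1 of 30 with regions of at least 2 kb and 0 of 30 with 0-based starts. Neighbouring bins of 1 map are not replicates, so this interval only sets a limit for calling a change and measures no error. With regions of at least 5 kb, H3K9me2 was at 0.0% in the bodies of Tmem132d and Tmem132e, and H3K9me1 covered 35.7% of Tmem132b, which came to 51.2% with joining. The share of genes with as much of the body covered as a member moved with the background in 20 of 45 values. For Tmem132e and H3K9me3 it went from 7.50% of all genes to 1.34% of protein-coding genes on its chromosome, and for Tmem132a and H3K9me1 from 12.7% to 25.2%.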
